A study of Mus musculus with 10 samples.

Results

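The genes Pf4, Ppbp, Gp9, Gp1ba, Gp1bb, Gp6, Tubb1, Treml1 and Vwf are known for their work in megakaryocytes and platelets, and together they are 9 of the 24470 gene entries in the count table. They were picked by gene symbol, and they were chosen from values already measured here, the counts of GPI-treated against vehicle-treated gonads. Their differences between the treatments are therefore given as a description, without p-values, and nothing is read from how many of them were called. Male gonads of 5 C57BL/6 mouse embryos, named M1 to M5, were taken at E12.5 with the mesonephros attached. From each embryo, 1 gonad was cultured on agar for 48 h with 75 µM GPI (CP 316819, an inhibitor of glycogen phosphorylase, which breaks glycogen down), and the opposite gonad was cultured with the vehicle DMSO. The mesonephros was then cut away and RNA of the whole gonad was sequenced, so that every cell type left in the organ after culture contributed to the 5 vehicle and 5 GPI libraries. The libraries held from 10203679 to 15590223 counts with vehicle and from 11025409 to 15635322 with GPI.

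Megakaryocytes are large blood cells that shed platelets into the circulation, and in the embryo they arise from the yolk sac and later the fetal liver. Platelets carry the GPIb-IX-V receptor, which catches von Willebrand factor on a damaged vessel wall, the collagen receptor GPVI, and granules filled with chemokines such as PF4 and PPBP. The gonad is not known as a site of platelet production, but its vessels hold blood. Vwf is also made by endothelial cells, and Pf4 is also known in macrophages of the fetus.

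In the vehicle libraries the 9 genes were rare, and most counts belonged to Pf4, Gp1ba and Vwf. All 9 together had 78, 117, 100, 271 and 227 raw counts in the vehicle gonads of M1 to M5 and 47, 34, 60, 62 and 47 in the GPI gonads. After scaling, every GPI sum lay below every vehicle sum. The scaled values, called normalized counts, divide each count by the library's TMM-adjusted size and multiply by the mean of these sizes, so that 1 raw count is worth between 0.762 and 1.19 normalized counts. Only Pf4, Gp1ba and Vwf had enough counts for the test across genes, and the other 6 were set aside by its low-count filter.

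The name of the gene group rests on few counts. Several members were close to 0: Gp9 had 26 raw counts over the 5 vehicle libraries, Gp6 26, Tubb1 21, Gp1bb 8 and Treml1 7. Ppbp had 95 and Gp1ba 196. Gp5, another subunit of the von Willebrand receptor, had 0, 4, 3, 6 and 4 raw counts with vehicle and 2, 1, 0, 1 and 1 with GPI. Itga2b, the integrin subunit also known as CD41, had 3, 28, 1, 14 and 14 counts with vehicle and 16, 12, 2, 12 and 16 with GPI. Gp5 and Itga2b were singled out after their values were seen. The counts show RNA of megakaryocyte genes in the gonads, and how much of it came from megakaryocytes or platelets was not tested. In bulk RNA, fewer cells of a type and less RNA per cell cannot be told apart.

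**Figure D1:**
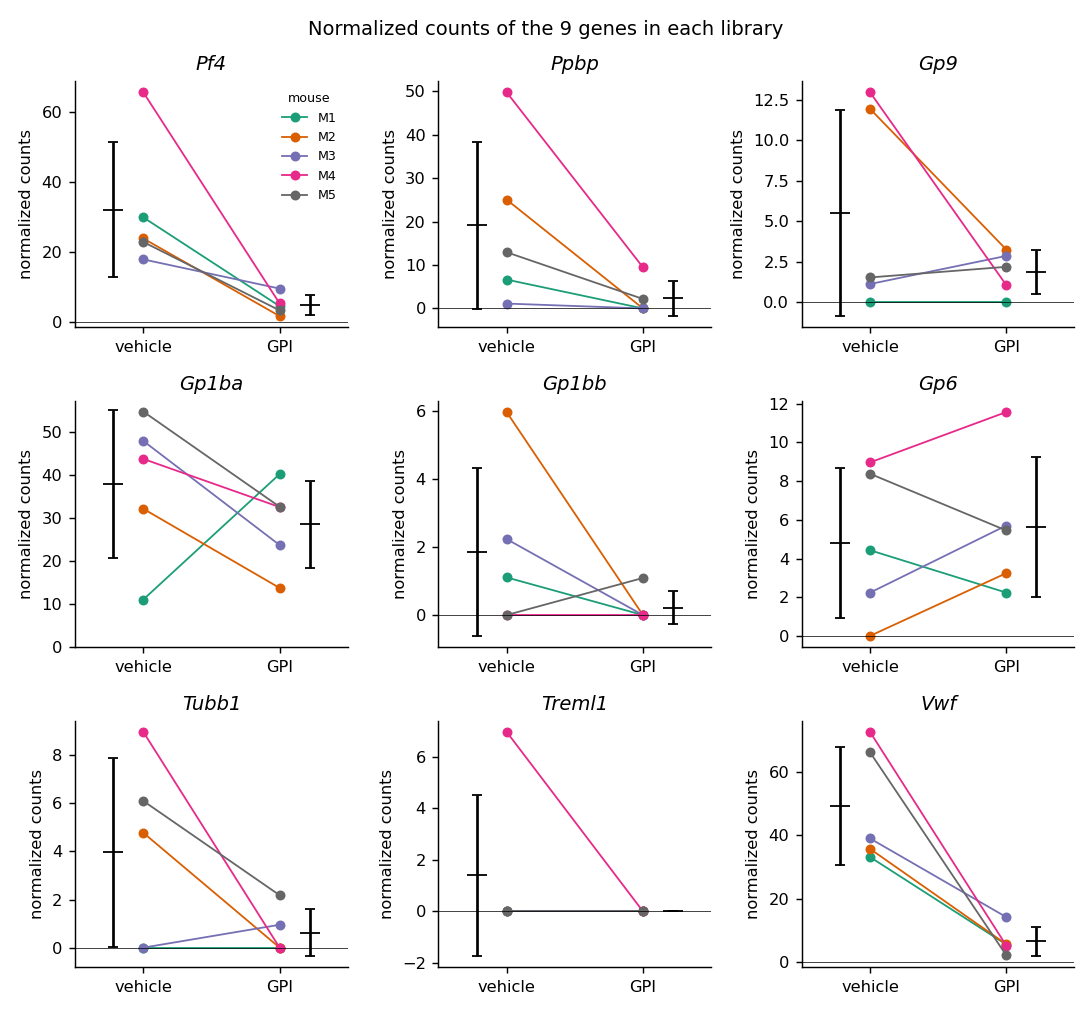
Normalized counts (vertical axis) of each of the 9 genes in the vehicle and GPI libraries, with 1 line for each of the 5 mice and, beside the points, the mean with its SD (n = 5). Pf4 and Vwf have every GPI point below every vehicle point, Gp1ba has 4 lines going down and 1 going up, and Gp6 has 2 going down and 3 going up.

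The 2 granule chemokines come first. Pf4 (Entrez 56744) lies at chr5:90772435-90773383 on the plus strand of mm10, and Ppbp (Entrez 57349) is its neighbour at chr5:90768518-90770063 on the same strand. PF4 binds heparin-like sugars and is released when platelets are activated, and PPBP is the precursor of a chemokine that attracts neutrophils. Their upstream sequences are shown because the genes sit side by side, together with that of Gp1ba, a receptor gene of the same cells. Sequences of RefSeq for GRCm38.p6, 250 bases each, were found for 8 of the 9 genes, and Vwf was not matched. Except for Gp9, they are the bases directly before the start listed here. The Gp9 window, chr6:87777820-87778069, ends short of its listed start at 87778136. Capitals mark 6-letter matches, on either strand, to GATA words (AGATAA or TGATAA and also AGATAG or TGATAG), ETS words (CGGAAG or AGGAAG) and RUNX words (TGTGGT or TGCGGT), and no match overlaps another. The windows are chr5:90772185-90772434 (Pf4), chr5:90768268-90768517 (Ppbp) and chr11:70638872-70639121 (Gp1ba), each on the plus strand and outside every gene entry of the count table.
Pf4: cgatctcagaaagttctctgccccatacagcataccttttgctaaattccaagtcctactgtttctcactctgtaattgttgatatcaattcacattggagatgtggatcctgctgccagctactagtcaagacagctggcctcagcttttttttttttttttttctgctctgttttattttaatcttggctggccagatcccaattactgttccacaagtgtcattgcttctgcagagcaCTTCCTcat
Ppbp: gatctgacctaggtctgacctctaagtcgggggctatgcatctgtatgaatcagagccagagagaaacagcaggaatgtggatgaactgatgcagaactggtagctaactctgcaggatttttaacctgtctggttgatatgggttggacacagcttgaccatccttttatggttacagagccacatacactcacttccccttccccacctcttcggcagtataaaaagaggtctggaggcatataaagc
Gp1ba: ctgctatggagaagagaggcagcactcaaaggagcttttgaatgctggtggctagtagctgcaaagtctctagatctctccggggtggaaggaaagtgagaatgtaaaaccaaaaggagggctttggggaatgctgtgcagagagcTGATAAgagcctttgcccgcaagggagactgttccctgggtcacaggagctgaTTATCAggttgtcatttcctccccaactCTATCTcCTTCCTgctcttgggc

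The window of Gp1ba held 3 GATA matches, beginning 104, 51 and 23 bases before the start, and 1 ETS match beginning 16 bases before it. Pf4 held 1 ETS match, beginning 9 bases before its start, and the Ppbp window held no match to any of these words. Among the other 5 windows, GATA words were found in Gp6 and Gp1bb, ETS words in Tubb1, Gp9 and Gp1bb, and a RUNX word in Gp9. That made 3 of 8 genes with a GATA word, 5 of 8 with an ETS word and 1 of 8 with a RUNX word, where 26.5%, 39.2% and 18.6% of all 32851 windows of the same length held one. A match describes letters only and is no evidence that a factor binds there.

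Pf4 had 27, 20, 16, 66 and 30 raw counts in the vehicle gonads of M1 to M5 and 4, 2, 10, 5 and 3 in the GPI gonads. M4 stood highest with vehicle and M3 highest with GPI, and the groups did not overlap. Vehicle gonads averaged 32.1 ± 19.3 normalized counts (SD, n = 5) and GPI gonads 4.83 ± 2.96 (SD, n = 5). The paired edgeR fit gave a log2 fold change of -2.66 (SE 0.49). Within a mouse, the GPI gonad held between 6.79% (M2) and 53.2% (M3) of the normalized count of its vehicle partner.

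Ppbp varied more between mice than Pf4. Its raw counts were 6, 21, 1, 50 and 17 with vehicle and 0, 0, 0, 9 and 2 with GPI. The highest count was in M4 under both treatments, each GPI gonad was below its own partner, and the groups overlapped, since the vehicle gonads of M1 and M3 lay below the GPI gonad of M4. Summed over libraries and scaled for depth, the 11 GPI counts were 11.4% of the 95 vehicle counts, with an exact 95% interval of 5.49% to 21.3% that covers counting error only. On the log2 scale this ratio was -3.14, and without M4 it was -4.54. Amplified reads are not independent molecules, so such intervals are too narrow to stand for the spread between embryos.

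The next 3 genes encode subunits of the von Willebrand receptor. GPIbα, the product of Gp1ba, holds the site that binds von Willebrand factor, and GPIbβ (Gp1bb) and GPIX (Gp9) are needed to bring it to the cell surface. Gp1ba (Entrez 14723, chr11:70639122-70642058, plus strand) had 10, 27, 43, 44 and 72 raw counts with vehicle and 36, 17, 25, 31 and 30 with GPI. The vehicle gonad of M1 was the lowest of all 10 libraries and its GPI partner was the highest of the GPI group, so the groups overlapped and M1 went opposite to the other 4 mice. Vehicle gonads averaged 38.0 ± 17.2 normalized counts (SD, n = 5) and GPI gonads 28.6 ± 10.2 (SD, n = 5), and the fitted log2 fold change of -0.38 (SE 0.41) was smaller than its error. Without M1 it was -0.85.

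Gp9 (Entrez 54368, chr6:87778136-87779762, plus strand) had 0, 10, 1, 13 and 2 raw counts with vehicle and 0, 4, 3, 1 and 2 with GPI. Counts were high only in the vehicle gonads of M2 and M4, and in the other 3 mice neither gonad had more than 3. The summed, depth-scaled GPI count was 37.7% of vehicle (exact 95% interval 16.2% to 80.9%, counting error only). Its log2 ratio was -1.41, and without M4 it was -0.58. Gp1bb (Entrez 14724, chr16:18620319-18622403, minus strand) had 1, 5, 2, 0 and 0 counts with vehicle and 0, 0, 0, 0 and 1 with GPI. The ratio of 12.3% had an interval of 0.276% to 91.5%, and its log2 value went from -3.03 to -1.48 without M2, which held 62.5% of the vehicle counts. Gp1bb shares 593 bases of its span with Septin5 on the same strand, and 1902 of its 2087 exon bases in GENCODE are also exon bases of Septin5, so its count is uncertain. The other 8 genes overlap no other entry of the table.

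Gp6 encodes the platelet receptor for collagen, and its counts did not separate by treatment. The gene (Entrez 243816, chr7:4368713-4397744, minus strand) had 4, 0, 2, 9 and 11 raw counts with vehicle and 2, 4, 6, 11 and 5 with GPI. M4 and M5 were high with vehicle, M4 was the highest with GPI, and the ranges overlapped widely. The depth-scaled ratio was 106% (exact 95% interval 59.7% to 188%, counting error only).

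Tubb1 and Treml1 belong to the mature platelet. Tubb1 encodes the β1-tubulin of the microtubule ring that gives platelets their disc shape, and Treml1 encodes a receptor stored in platelet granules. Tubb1 (Entrez 545486, chr2:174450595-174458380, plus strand) had 0, 4, 0, 9 and 8 raw counts with vehicle and 0, 0, 1, 0 and 2 with GPI. M1 and M3 had none with vehicle, and the scaled ratio was 14.0% (exact 95% interval 2.68% to 47.0%, counting error only). Its log2 value of -2.83 was -2.05 without M4, -3.37 without M3 and -3.88 without M5. Treml1 (Entrez 71326, chr17:48359916-48367176, plus strand) had 7 counts in the vehicle gonad of M4 and 0 in every other library. Against a floor of 3 counts over the 5 GPI libraries, the depth-scaled vehicle sum was 2.38-fold higher. That value takes the 7 vehicle counts as exact and rests on M4 alone, so it is not a firm bound. The other mice showed no difference.

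Vwf had the most counts of the 9 genes with vehicle, 255 over the 5 libraries against 196 for Gp1ba, while with GPI it had 34 against 139. The protein forms long chains that tether platelets to collagen and carries clotting factor VIII in plasma. The gene (Entrez 22371, chr6:125552948-125686679, plus strand) had 30, 30, 35, 73 and 87 raw counts with vehicle and 5, 7, 15, 5 and 2 with GPI. M4 and M5 were high with vehicle, M3 was the highest with GPI, and the groups did not overlap. Normalized counts averaged 49.4 ± 18.6 in vehicle gonads (SD, n = 5) and 6.60 ± 4.53 in GPI gonads (SD, n = 5), and the fitted log2 fold change was -2.88 (SE 0.45). Within a mouse, GPI left between 3.29% (M5) and 36.5% (M3) of the vehicle value.

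Of the 3 genes with enough counts, edgeR called 2 lower with GPI at an FDR of 0.05, Pf4 and Vwf, where it called 11.9% of all 13941 tested genes lower. Every GPI library lay below every vehicle library for the same 2 genes, and for 9.05% of all tested genes. Without the low-count filter all 9 genes entered the fit and 3 were called lower, Pf4, Ppbp and Vwf, where 9.28% of 20287 genes were. Nothing is read from these counts, since the genes were chosen with the contrast known.

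The mice differed in how much of the signal they carried. The vehicle gonad of M4 held 41.5% of the raw vehicle counts of Pf4, 52.6% of Ppbp, 13 of the 26 counts of Gp9, 42.9% of Tubb1 and 100% of Treml1. The share of M4 was lower for Vwf (28.6%) and Gp1ba (22.4%), whose largest shares of raw counts came from M5, the deepest vehicle library. After scaling, Vwf was 72.71 in M4 and 66.28 in M5, and Gp1ba was 43.83 and 54.85. M4 held 34.6% of the 26 vehicle counts of Gp6, with 42.3% in M5, and none of the 8 of Gp1bb. The 6 genes set aside had 11, 40, 6, 88 and 38 raw counts together in the vehicle gonads of M1 to M5 and 2, 8, 10, 21 and 12 with GPI. In M3 this sum was no higher with vehicle than with GPI, while Pf4 and Vwf of M3 were lower with GPI by less than in the other mice.

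Levels of different genes were compared per length, as TMM-scaled counts per kilobase of exon and per 1000000 counts. With vehicle the order of the mean levels was Pf4 (3.61), Ppbp (1.43), Gp1ba (1.13), Gp9 (0.507), Vwf (0.250), Tubb1 (0.229), Treml1 (0.0807), Gp1bb (0.0724) and Gp6 (0.0661). Each gene's range over the 5 vehicle libraries overlapped that of its neighbour in this order. Pf4 was nevertheless above Ppbp in 5 of 5 libraries, and its lowest vehicle level, 2.01, exceeded the highest of Gp1ba, 1.64. Vwf, whose vehicle count was the largest, came after Gp9 in the order of means, with exons of 16064 bases against 881 for Gp9. Within libraries, Gp9 was above Vwf in only 2 of 5, and Vwf above Tubb1 in only 2 of 5. With the longest transcript of 8834 bases in place of all exons, the mean level of Vwf was 0.454, and the order of means was the same. With GPI, Gp1ba stood first (0.855), ahead of Pf4 (0.543), Ppbp (0.175), Gp9 (0.172), Gp6 (0.0776), Tubb1 (0.0361), Vwf (0.0333) and Gp1bb (0.00848), with Treml1 at 0. With the longest transcript Vwf was at 0.0606, above Tubb1 at 0.0361. Gp1ba was above Pf4 in 4 of 5 GPI libraries, and neighbours again overlapped in range. Ppbp was above Gp9 in only 1 of 5 GPI libraries, and Tubb1 above Vwf in only 1 of 5.

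**Figure D2:**
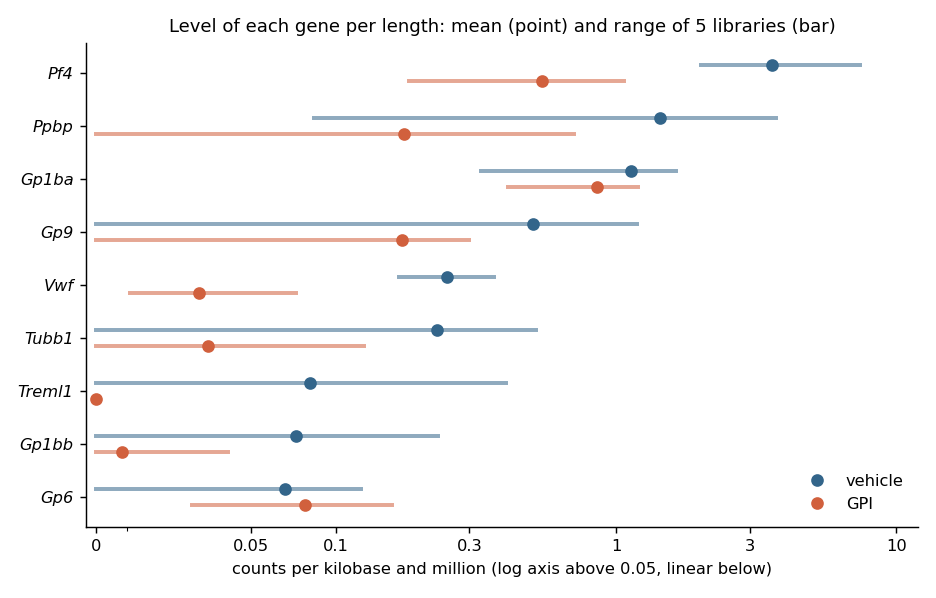
Level of each gene in counts per kilobase and per 1000000 counts (horizontal axis, logarithmic above 0.05 and linear below), as the mean (point) and the lowest to highest value (bar) of 5 vehicle and 5 GPI libraries. Pf4 leads with vehicle at 3.61 and Gp1ba with GPI at 0.855.

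Genes that regulate or build megakaryocytes and platelets were then counted in lists. They are set beside all tested genes, of which 11.9% were called lower and 11.1% higher, with a median log2 fold change of 0.02. The lists too were chosen with earlier results of these data known, so their counts and medians are a description, and nothing particular to a list is read from them. Among 14 regulators of the megakaryocyte lineage, 8 could be tested, 5 fell with GPI and 3 were not called, with a median log2 fold change of -1.24. The ETS factor Fli1 fell from 1068 to 142 normalized counts (log2 fold change -2.93, SE 0.14, lower in 5 of 5 mice). Tal1 and Lmo2, partners in a blood and vessel transcription complex, fell with log2 fold changes of -3.29 (SE 0.38) and -2.67 (SE 0.19), and Runx1 with one of -1.11 (SE 0.16). The fifth was Gata2, named after its values were seen. Meis1, Etv6 and Zfpm1 had log2 fold changes of -0.09, -0.06 and 0.19 and were not called. Fli1, Tal1 and Lmo2 are also used by endothelial cells. Gata1, the leading erythroid and megakaryocyte GATA factor, was too low to test, with 7, 7, 8, 5 and 17 raw counts with vehicle and 4, 11, 9, 19 and 10 with GPI. Gfi1b, a repressor needed for both lineages, had 17, 1, 9, 1 and 19 counts with vehicle and 0 in all GPI libraries. Both were singled out after their values were seen.

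Of 18 genes for platelet surface proteins, 11 could be tested, 7 fell and 4 were not called, with a median of -0.67. The collagen-binding integrin Itga2 fell from 423 to 63.9 normalized counts (log2 fold change -2.72, SE 0.17, lower in 5 of 5 mice). F2rl3, the thrombin receptor PAR4, fell by 3.06 (SE 0.47) on the log2 scale, and the tetraspanin Cd9 fell by 1.48 (SE 0.15). Itgb3, the β3 integrin of platelets and many other cells, fell by 0.50 (SE 0.14) with overlapping groups, and it was not called without the replicate block (log2 fold change -0.51), without M4 (-0.43) or without M5 (-0.51). Itga2b, its platelet partner, was not called (log2 fold change 0.17, SE 0.57). Nor were Mpig6b (0.88, SE 0.46, higher in 5 of 5 mice), Tbxa2r (0.41, SE 0.49) and F2rl2 (0.01, SE 0.4), named after their values were seen. Mpig6b overlaps G6bos and F2rl2 overlaps Iqgap2, each on the other strand. Only 4 of the list were called lower without M4 and 4 without M5.

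Among 15 genes of platelet granules, 13 could be tested, 7 fell, 2 rose and 4 were not called, with a median of -0.44. Serglycin (Srgn), the proteoglycan that packs PF4 in granules, fell from 61.1 to 8.82 normalized counts (log2 fold change -2.77, SE 0.37, lower in 5 of 5 mice). Pdgfb and Mmrn1, which endothelial cells also make, fell with log2 fold changes of -2.65 (SE 0.31) and -2.13 (SE 0.36), and Tgfb1 fell by 1.81 (SE 0.14). Thbs1 and Serpine2, which many tissues make, rose with log2 fold changes of 0.37 (SE 0.12) and 0.93 (SE 0.11). Only 1 of the list was called higher without the replicate block, with total counts only, and without M1, M3, M4 or M5. In each of these Thbs1 was not called, with log2 fold changes of 0.39, 0.32, 0.24, 0.36, 0.40 and 0.37. Vps33b and Vipas39, a pair needed to form α-granules, were not called. Timp3, the most abundant gene of the list, fell by 0.44 (SE 0.06), but it lies within Syn3 on the other strand and reads were counted without strand.

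In platelet signalling, 14 of 20 genes could be tested, 9 fell, 1 rose and 4 were not called, with a median of -1.36. Pik3cg, a phosphoinositide kinase of blood cells, fell from 262 to 46.6 normalized counts (log2 fold change -2.49, SE 0.26). Inpp5d, Plcg2 and Lcp2, which act below immune-type receptors in many blood cells, fell with log2 fold changes of -2.62 (SE 0.42), -2.26 (SE 0.40) and -2.21 (SE 0.26). Syk, a kinase of the same pathway, had 127 and 130 normalized counts and was not called. The calcium sensor Stim1 rose by 0.65 (SE 0.14). In the list of 12 cytoskeletal genes, which nearly every cell uses, 11 could be tested, 8 fell and 3 were not called, with a median of -0.50. The log2 fold changes were -0.80 (SE 0.07) for Tpm4, -1.17 (SE 0.09) for Tmsb4x, -0.50 (SE 0.07) for Myh9 and -0.30 (SE 0.06) for Flna, all called. Rhoa was also called, with -0.35 (SE 0.07), while Cdc42, with -0.09 (SE 0.06), was not. Over these 5 lists, 36 of the 57 tested genes were called lower, 3 higher and 18 neither, and 22 of 79 were too low to test. Of all tested genes, 11.9% were called lower and 11.1% higher. The 5 lists include genes that many other cells use, so nothing particular to platelets is read from this count.

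**Figure D3:**
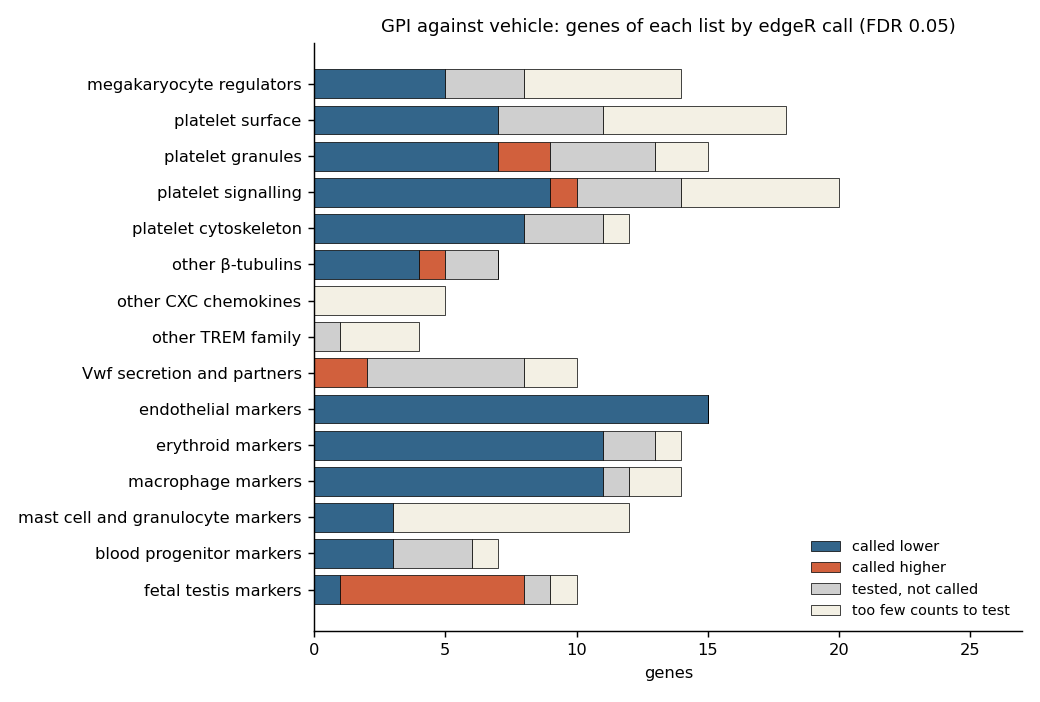
Number of genes (horizontal axis) in each of 15 gene lists that edgeR called lower with GPI, called higher, tested without a call, or could not test for lack of counts. All 15 endothelial markers are in the first class, none of the 5 other CXC chemokines could be tested, and 7 fetal testis markers are in the second.

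Relatives of the 9 genes were set beside them. Of 7 other β-tubulin genes, all tested, 4 fell, 1 rose and 2 were not called, with a median of -0.49. The falls had log2 fold changes of -1.07 (SE 0.13) for Tubb6, -0.94 (SE 0.17) for Tubb2a, -0.68 (SE 0.19) for Tubb4a and -0.49 (SE 0.10) for Tubb2b. Tubb4a was not called without M2 (-0.63), M3 (-0.61) or M4 (-0.66). Tubb3 rose by 1.02 (SE 0.23), and Tubb5 and Tubb4b, the most abundant, had log2 fold changes of -0.09 and -0.14 and were not called. Tubb4b shares 124 bases with Fam166a on the other strand, so its count is uncertain. The other 5 CXC chemokine genes near Pf4 and Ppbp on chromosome 5, Cxcl1, Cxcl2, Cxcl3, Cxcl5 and Cxcl15, were all too low to test. Their summed normalized counts were 24.4, 11.9, 6.7, 16.9 and 10.7 with vehicle and 23.5, 8.9, 17.1, 4.2 and 7.6 with GPI, with the groups overlapping. Among 4 other TREM family genes near Treml1 on chromosome 17, Trem1, Trem2 and Treml4 were too low to test. Treml2 had 16, 4, 11, 15 and 33 raw counts with vehicle and 0, 17, 3, 2 and 7 with GPI, and was not called (log2 fold change -1.62, SE 0.71). Without M2 it was called lower, with a log2 fold change of -2.53.

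Of 10 genes that store, cut or accompany von Willebrand factor, 8 could be tested, and edgeR called 0 lower and 2 higher, with a median of 0.17. At an unadjusted p under 0.05, 1 was lower, Lman1 (log2 fold change -0.20, SE 0.08, lower in 5 of 5 mice), and 4 were higher, and DESeq2 and limma-voom also called 0 lower. The other 2, named after their values were seen, were too low to test. Adamts13, which encodes the enzyme that cuts the protein, had 0, 3, 10, 3 and 11 raw counts with vehicle and 9, 0, 0, 0 and 1 with GPI. Selp, which encodes P-selectin, had 3, 0, 3, 4 and 19 with vehicle and 0, 2, 3, 0 and 3 with GPI. Cd63, a membrane protein of storage granules in many cells, rose by 0.41 (SE 0.07), and Mcfd2, a cargo receptor for factor VIII, rose by 0.49 (SE 0.12). Without M4, Mcfd2 was not called (log2 fold change 0.37) and 1 gene was called higher. F8, the factor that Vwf carries, had a log2 fold change of 0.36 (SE 0.13), and Angpt2 one of -0.01 (SE 0.12), and neither was called. F8 was called higher without M1 (0.43), without M2 (0.45), with limma-voom (0.37) and with no low-count filter (0.35). Angpt2 lies within Mcph1 on the other strand, so its count may hold reads of that gene. With total counts only in place of TMM, 1 gene of the list was called lower, Lman1 (-0.25).

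Endothelial markers were given beside Vwf. All 15 endothelial markers could be tested and all 15 fell, with a median of -3.08. Their summed normalized counts were 10788, 11118, 10636, 12070 and 11163 with vehicle and 1430, 1694, 1153, 894 and 1093 with GPI, so the GPI mean was 11.2% of vehicle, beside 13.3% for Vwf. Cdh5, the most abundant, fell from 2827 to 232 normalized counts (log2 fold change -3.63, SE 0.12), Pecam1 with one of -4.16 (SE 0.15) and Flt1 with one of -5.18 (SE 0.18). No endothelial marker was at 0 in every library, and Cdh5 overlaps the entry Gm29682 on the other strand. The order of the mice was not the same, since M3 kept the most Vwf (36.5% of vehicle) and 10.8% of the endothelial sum, and M5 kept 3.29% and 9.79%. Their part in the Vwf result was not tested.

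Macrophage markers were given beside Pf4. Of 14, 12 could be tested, 11 fell and 1 was not called, with a median of -1.78. The summed counts were 1373, 1078, 1131, 1041 and 1056 with vehicle and 604, 510, 540, 302 and 294 with GPI, and the GPI mean was 39.6% of vehicle, beside 15.1% for Pf4. Lyz2, the most abundant, fell with a log2 fold change of -1.65 (SE 0.24), Csf1r with one of -2.22 (SE 0.21) and C1qa with one of -3.78 (SE 0.56). Adgre1, which encodes F4/80, had 59.8 and 51.2 normalized counts and was not called, and it was named after its values were seen. The part of macrophages in the Pf4 result was not tested.

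Markers of other blood cells were also counted. Of 14 erythroid markers in the table, 13 could be tested, 11 fell and 2 were not called, with a median of -1.71. The erythroid sums were 2277, 3083, 5791, 5416 and 4632 with vehicle and 1931, 1082, 1016, 1125 and 2587 with GPI, with M1 and M2 low among the vehicle gonads and the groups overlapping. Hbb-y, an embryonic globin and the most abundant, fell with a log2 fold change of -0.98 (SE 0.23) and Slc4a1 with one of -4.80 (SE 0.42). Hbb-bs fell by 4.13 (SE 0.34), with counts that can be shared with its near copy Hbb-bt. Mast cell and granulocyte markers summed to 478, 678, 849, 204 and 1410 with vehicle and 11.2, 109, 32.3, 4.2 and 25.1 with GPI. Only 3 of these 12 could be tested and all 3 fell, with log2 fold changes of -4.42 (SE 0.39) for S100a9, the most abundant, -5.01 (SE 0.52) for S100a8 and -3.97 (SE 0.85) for Ltf, while Fcer1a, named after its values were seen, was at 0 in every library. The 3 that fell are granulocyte genes, and the mast cell markers were all too low to test. None of the 12 had at least 10 counts in every library. Genes this low with GPI pass the low-count filter largely through their vehicle counts, so the fall of all 3 was partly set by the filter. The blood progenitor sums were 2435, 2439, 2722, 3184 and 2804 with vehicle and 1222, 1047, 1011, 1157 and 1086 with GPI. Of the 7 progenitor markers, 6 could be tested, 3 fell and 3 were not called, with a median of -1.63, and 5 fell without M2. The falls had log2 fold changes of -3.49 (SE 0.15) for Cd34, -2.49 (SE 0.23) for Mecom and -1.85 (SE 0.26) for Ptprc. Cd34 overlaps Gm16897 on the other strand, and Kit, the most abundant and also a germ cell gene, was not called. The part of these cells in the results of the 9 genes was not tested.

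**Figure D4:**
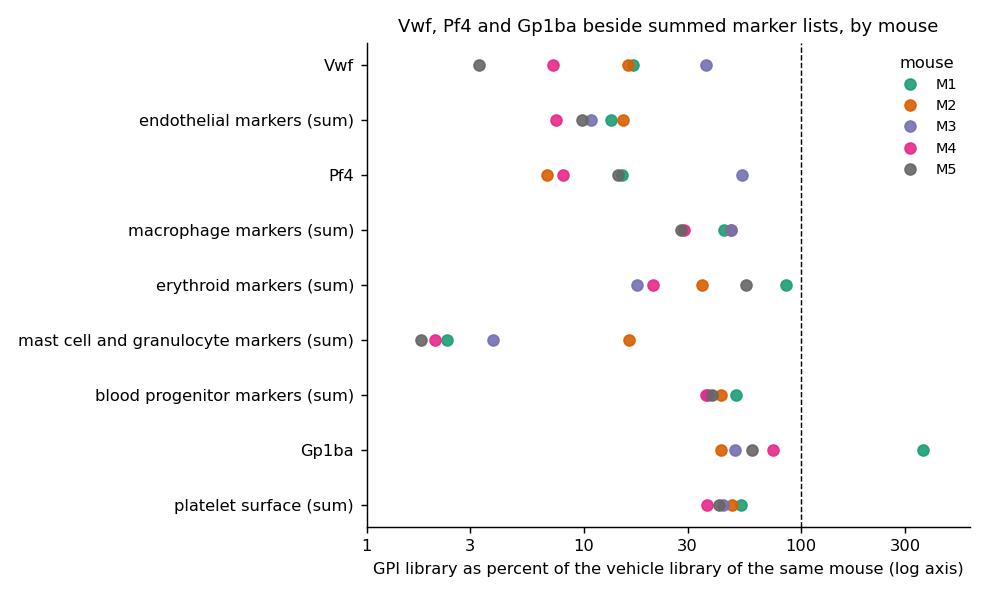
Normalized count of each GPI library as a percent of the vehicle library of the same mouse (horizontal axis, logarithmic), for Vwf, Pf4, Gp1ba and 6 gene lists summed, with 1 point for each of the 5 mice and a dashed line at 100%. Vwf spans 3.29% to 36.5%, the endothelial sum 7.41% to 15.2%, and Gp1ba has M1 alone above 100%, at 364%.

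The tissue itself carried testis markers in all libraries. Of 10 fetal testis markers, 9 could be tested, 7 rose, 1 fell and 1 was not called, with a median of 0.79. Their sums were 2267, 3524, 3574, 2961 and 4556 with vehicle and 7869, 9057, 12897, 14600 and 10281 with GPI. The Sertoli cell factor Sox9 rose by 0.59 (SE 0.09), and the steroid enzyme Cyp11a1, the most abundant of the list with GPI, rose by 2.90 (SE 0.27). Ddx4, a germ cell marker, fell by 2.72 (SE 0.45).

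The genes whose pattern was most like that of Pf4 and Vwf were found by Pearson's r of log2 scaled counts over the 10 libraries, among 12916 tested genes with a mean of at least 20 normalized counts. For Pf4 they included Rsu1 (r = 0.949), Plekha1 (0.947), Wt1os (0.947) and Shroom2 (0.944). For Vwf they were N4bp3 (r = 0.993), Cdk17 (0.978), 4833422C13Rik (0.972), Procr (0.972) and Prmt7 (0.970). These genes were all lower on average with GPI, and the 10 libraries fall into 2 treatments, so these values include that shared step and carry no test. Procr, the endothelial protein C receptor, had 106 and 16.1 normalized counts with vehicle and GPI, and Rsu1 had 1294 and 945.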

How the data were processed

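RNA of 10 cultured gonads was amplified and sequenced as 1 library each. Reads were aligned to mm10 with STAR 2.5 by the authors, who deposited raw counts for 24470 gene entries, made by featureCounts (Subread 1.5.0-p1) without strand. The table has 0 further value columns. The members and the gene lists were chosen with earlier results of these data known.

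The filter filterByExpr (minimum count 10, total 15) kept 13941 entries and removed 10529. A gene was called at an FDR of 0.05 (Benjamini-Hochberg, over all tested genes) by the quasi-likelihood test of edgeR, with TMM scaling and mouse and treatment as terms. The standard error is the absolute log2 fold change over the square root of F. Genes were named by a fixed rule: the 9 members, every gene of lists of at most 7, otherwise the 6 most abundant and any called gene with a log2 fold change of at least 2 in size, and the 5 genes most like Pf4 and Vwf (prior count 2). Some genes so chosen are not reported here. Exceptions are stated where they stand. The 9 lengths came from GENCODE M21 exons.

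The gonads of a mouse come from 1 embryo, which pairs them. Deviations from the treatment means correlated by 0.060 on average within a mouse (-0.040 to 0.155) and by -0.015 between mice. Without the replicate block, 3108 genes were called in place of 3198. Libraries of a treatment all differed beyond sampling noise (chi-square over its degrees of freedom 6.42 to 27.8). Results were recomputed with limma-voom and with DESeq2, without the block, with RLE or total-count scaling, without a filter or with a minimum of 10 in every library, without each mouse, and, for lengths, with the longest transcript. The fits were tested on simulated data. The tools were edgeR 4.0.16, DESeq2 1.42.0 and limma 3.58.1 in R 4.3.3, and Python 3.11.15, pandas 2.3.3, numpy 2.4.6 and matplotlib 3.10.9.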

Additional observations from a re-analysis of the deposited data

Results flagged for a closer look

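In each treatment, the normalized counts of the 9 genes and the summed counts of the 15 lists were searched for a library standing far from the other 4. Of 48 groups, 9 had one, and chance marks about 1 in 20 groups of normally distributed values. Low or skewed counts can be marked more often, so 9 of 48 is not compared with that rate. Where 4 libraries are at 0, the remaining library is marked at any count, as for Treml1 and Gp1bb below. Pf4 of the vehicle gonad of M4 was 65.7, with the others from 17.9 to 29.9. Treml1 of the same library was 6.97, with the others at 0. Ppbp of the GPI gonad of M4 was 9.47, with the others from 0 to 2.18. Gp1bb of the GPI gonad of M5 was 1.09, a single read pair, with the others at 0. Vwf of the GPI gonad of M3 was 14.3, with the others from 2.18 to 5.68. The platelet surface sum of the GPI gonad of M1 was 765.5, with the others from 654.4 to 682.1. The platelet signalling sum of the vehicle gonad of M4 was 3900, with the others from 3470 to 3564. The macrophage marker sum of the vehicle gonad of M1 was 1373, with the others from 1041 to 1131. The mast cell and granulocyte sum of the GPI gonad of M2 was 109.4, with the others from 4.21 to 32.3.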

How the results depend on the processing

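The number of genes called was 3198, from 2819 to 3472 under 7 other settings and from 2311 to 3082 with a mouse left out. No alternative reversed the sign of Pf4 (-3.24 to -2.39), Vwf (-3.38 to -2.53) or Gp1ba (-0.85 to -0.19). Removing the replicate block moved no count of all calls or of calls lower by over 1.5 times. A minimum of 10 counts in each library, which drops genes that are low with GPI, left 4 of 10 tested granule genes called lower, 4 of 8 signalling genes, 6 of 7 erythroid and 6 of 7 macrophage markers, and 0 mast cell and granulocyte markers, none of which passed it. Pf4 and Vwf did not pass it either. With total counts only, 1 gene of the von Willebrand factor list was called lower, and 61.4% of all calls were lower, against 51.7%. With a mouse left out, calls lower ranged from 4 to 6 for platelet surface genes, from 0 to 1 for TREM genes and from 3 to 5 for progenitor markers, and the cause was not tested. Of the other counts of all calls and of calls lower, 182 values stayed within 1.5 times. Calls higher moved by more for 2 lists. Granule genes had 1 in place of 2 under 6 of 12 alternatives, namely without the block, with total counts only, and without M1, M3, M4 or M5, and the von Willebrand factor list had 1 in place of 2 without M4. The cause was not tested. Among values of single genes, Ppbp without M4, Gp1bb without M2 and the Vwf level by longest transcript moved beyond the spread between mice, and 69 others did not. Gp1bb has no ratio without M5, and Treml1 has none at all. Depth limits the 6 genes set aside: most held fewer than 10 counts in most libraries. With no low-count filter, Ppbp was called lower (-3.41) and the other 5 were not called, and nothing is read from this, since the genes were chosen with the contrast known.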
